A study of Mus musculus with 48 samples.

Results

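A set of 9 genes of the route from tumour necrosis factor (TNF) to the transcription factor NF-kB was followed across mouse knee joints. They were chosen by name (Tnf, Tradd, Traf2, Ripk1, Birc2, Nfkb1, Rela, Relb and Tnfaip3), and all 9 were among the 248 endogenous genes measured. RNA was counted with the nCounter system, which tallies barcoded probes on single RNA molecules without amplification, in 48 samples from male C57BL/6 mice labelled as 3 months old. Each sample combined equal masses of synovium and of articular cartilage with the bone beneath it. The siMMP13 group (n = 12) had loaded knees and received small interfering RNA (siRNA) against Mmp13, a collagen-degrading metalloproteinase, in polymer nanoparticles conjugated to an antibody against type II collagen. The siNEG group (n = 12) had loaded knees and received a negative control siRNA in the same kind of nanoparticle. The loaded untreated group (n = 12) had the same loading and no nanoparticle, and the healthy group (n = 12) had neither. Loading models post-traumatic osteoarthritis without surgery: knees of mice 8 weeks old were compressed at 9 N for 500 cycles a session, with 5 sessions weekly during 4 weeks. In such bulk tissue, fewer cells of a type and less RNA per cell cannot be told apart, and Mmp13 knockdown was not measured with the genes analysed here.

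TNF is a cytokine made largely by macrophages and other immune cells, and it drives inflammation of the synovium and breakdown of cartilage. When it binds its receptor, the adaptor TRADD gathers TRAF2, the kinase RIPK1 and the ubiquitin ligase cIAP1, the product of Birc2, and the ubiquitin chains they build lead to release of NF-kB dimers into the nucleus. RELA with p50, which is processed from the Nfkb1 product, forms the canonical dimer. RELB acts mainly in the slower non-canonical branch, which cIAP1 and TRAF2 hold in check. TNFAIP3, also called A20, edits ubiquitin chains and shuts the signal down, and its gene is itself a well-known NF-kB target.

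The stretches upstream of 4 of these genes are shown because Tnfaip3 and Tnf are textbook NF-kB targets, whereas Traf2 and Birc2 differed between groups in the results that follow. RefSeq sequences (GRCm38.p6) were found for 6 of the 9 genes. Each line gives the 250 bases before the transcription start, read 5′ to 3′ on the gene's strand, and capitals mark the loose core of an NF-kB site on either strand, that is GGG and CC parted by 5 bases of any kind (GG and CCC when it lies on the other strand), with overlapping matches merged. The Tnfaip3 stretch is chr10:19015411-19015660, the Tnf stretch chr17:35202008-35202257, the Traf2 stretch chr2:25546941-25547190 and the Birc2 stretch chr9:7837058-7837307, all on the minus strand.
Tnfaip3: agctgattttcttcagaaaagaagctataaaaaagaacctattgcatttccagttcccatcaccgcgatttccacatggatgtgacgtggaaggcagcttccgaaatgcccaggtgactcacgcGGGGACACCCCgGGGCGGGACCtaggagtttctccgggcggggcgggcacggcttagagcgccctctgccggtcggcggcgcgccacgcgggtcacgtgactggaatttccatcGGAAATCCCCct
Tnf: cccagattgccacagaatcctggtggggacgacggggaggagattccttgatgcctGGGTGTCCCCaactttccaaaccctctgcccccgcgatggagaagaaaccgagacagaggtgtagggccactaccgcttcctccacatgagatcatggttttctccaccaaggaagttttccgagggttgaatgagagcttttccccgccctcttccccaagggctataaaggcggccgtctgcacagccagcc
Traf2: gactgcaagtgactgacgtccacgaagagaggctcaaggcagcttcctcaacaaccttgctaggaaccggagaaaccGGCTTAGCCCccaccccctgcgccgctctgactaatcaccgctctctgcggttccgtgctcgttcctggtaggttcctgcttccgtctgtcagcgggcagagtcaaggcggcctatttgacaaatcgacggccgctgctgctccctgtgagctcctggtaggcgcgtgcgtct
Birc2: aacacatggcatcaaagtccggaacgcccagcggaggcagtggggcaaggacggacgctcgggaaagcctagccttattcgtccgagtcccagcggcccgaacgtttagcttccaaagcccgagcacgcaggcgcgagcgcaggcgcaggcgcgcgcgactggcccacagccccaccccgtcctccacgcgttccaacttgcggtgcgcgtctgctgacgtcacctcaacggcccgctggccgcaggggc

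In a window of 300 bases, 250 before and 50 after the start, the core stood in at least 1 listed promoter of 5 of the 6 matched genes, and Birc2 had none in either of its promoters. Of all 32841 mouse promoters of the same length, 50.8% held that core, so its presence is common. A stricter match to the kappaB consensus stood in Tnfaip3 alone, with first bases 125 and 12 bases before the start, and in 4.51% of all promoters (1480). These are matches of letters, not measured binding.

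Counts were scaled in each library by the geometric mean of 6 housekeeping genes, and the scaled values are called normalized counts. Some of these 6 genes differed between groups after scaling, by as much as many differences given below. Mean log2 Gusb was 9.03 in healthy and 9.49 in loaded untreated joints, and mean log2 Hprt was 7.71 and 7.40. The means of Cltc, Gapdh and Pgk1 were close in these 2 groups, and Tubb5 had 11.35 and 11.16. Gene totals per library ran from 36415 to 302377, and the negative control probes averaged 5.63 to 8.47 counts by group. All 9 genes lay above the negative controls (mean plus 2 SD in the lane) in 12 of 12 samples of each group. A gene was called where the adjusted p of edgeR's quasi-likelihood test, fitted to all 4 groups and adjusted over the 196 genes that passed a count filter, was under 0.05. In all, 4 libraries, siMMP13 replicates 7, 8 and 11 and healthy replicate 2, had housekeeping profiles far from those of their group, and results that rest on them are given with and without them. Scaling also matters: TMM scaling moved the median of all genes against healthy joints by -0.15 (siMMP13), -0.24 (siNEG) and -0.19 (loaded untreated) on the log2 scale. TMM values are therefore given for many differences, but not every small uncalled value that turned is named below. Among those that turned in siMMP13 against healthy joints were Rela (0.06 to -0.05), Traf2 (0.05 to -0.09) and Tnfaip3 (0.09 to -0.02).

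**Figure D1:**
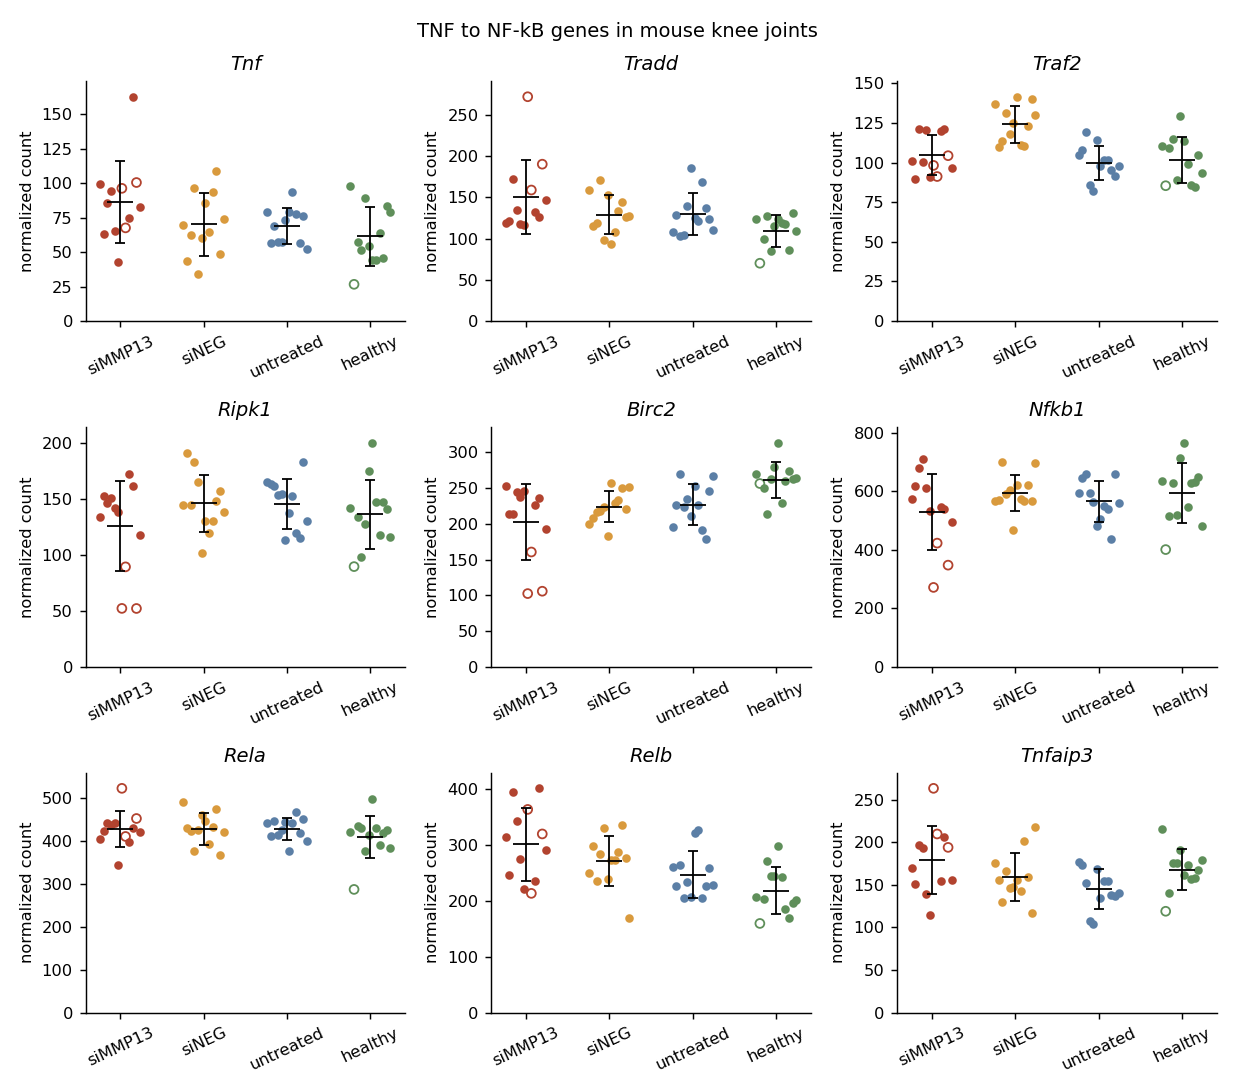
Normalized counts (vertical axes, from 0) of the 9 genes in each of 12 samples of the siMMP13, siNEG, loaded untreated and healthy groups, with mean and SD; open circles are the 4 libraries with a divergent housekeeping profile. Traf2 is highest in siNEG joints, the mean of Relb is lowest and that of Birc2 highest in healthy joints, and the open circles hold the lowest Ripk1, Birc2 and Nfkb1 values of the siMMP13 group.

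Tnf, the ligand, was higher in siMMP13 than in healthy joints and passed no other comparison. The lowest, median and highest normalized counts were 42.9, 84.3 and 163 in siMMP13 joints, 34.4, 66.9 and 108 in siNEG joints, 51.9, 70.8 and 93.5 in loaded untreated joints, and 26.6, 55.6 and 97.6 in healthy joints. All group ranges overlapped, and the single highest joint was siMMP13 replicate 10. Group means stood in the order siMMP13 (86.1 ± 29.7), siNEG (70.0 ± 22.5), loaded untreated (68.9 ± 12.8) and healthy (61.3 ± 21.5; SD, n = 12 each), and no neighbours in that order passed the test. Between the ends of the order, siMMP13 and healthy joints, Tnf differed by 0.49 ± 0.20 log2 (1.40-fold; SE, adjusted p = 0.022), with 11 of 12 siMMP13 joints above the healthy median. That call was lost without siMMP13 replicate 10 (0.36, adjusted p = 0.085), without the 4 divergent libraries (0.40, adjusted p = 0.061) and under TMM scaling (0.35, adjusted p = 0.092). Loading alone gave 0.17 ± 0.17 (loaded untreated against healthy joints, adjusted p = 0.45), with a 95% interval of -0.17 to 0.50, and under TMM scaling the value turned to -0.03. Tnf in siMMP13 joints stood 0.32 ± 0.19 above siNEG joints (adjusted p = 0.29) and 0.32 ± 0.15 above loaded untreated joints (adjusted p = 0.34), neither of which passed.

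Tradd, the adaptor that docks on the receptor, was higher in siMMP13 joints and in loaded joints as a whole than in healthy joints. Its lowest, median and highest normalized counts were 116, 133 and 272 in siMMP13 joints, 93.6, 127 and 170.4 in siNEG joints, 103, 124 and 186 in loaded untreated joints, and 70.0, 116 and 131 in healthy joints. The ranges overlapped in every comparison, and both extremes, the 272 of siMMP13 replicate 7 and the 70.0 of healthy replicate 2, were in divergent libraries. Tradd averaged 150.4 ± 44.9 in siMMP13, 129 ± 24 in siNEG, 129 ± 25.4 in loaded untreated and 109 ± 19.5 in healthy joints (SD, n = 12 each), and no neighbours in that order passed the test. Against healthy joints the difference was 0.47 ± 0.13 log2 in siMMP13 joints (adjusted p = 0.0016), but 0.23 (adjusted p = 0.061) without the 4 divergent libraries. Over all 36 loaded joints it was 0.33 ± 0.10 (adjusted p = 0.0071), and 0.22 (adjusted p = 0.027) without those libraries. Of the loaded joints, 27 of 36 lay above the healthy median. For all loaded joints the direction held under TMM scaling (0.16, adjusted p = 0.32), but the call did not. In siMMP13 against healthy joints Tradd passed under TMM scaling (0.39, adjusted p = 0.046) but not under total-count scaling (0.29, adjusted p = 0.13).

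Traf2, which carries the cIAP proteins to the receptor complex, was higher in siNEG joints than in each of the other groups under housekeeping scaling, and in none of these comparisons under TMM scaling. In siMMP13 joints the normalized counts had a lowest, median and highest value of 89.9, 101 and 121, against 110.1, 124 and 142 in siNEG joints, 81.8, 99.7 and 119 in loaded untreated joints, and 84.9, 102 and 129.6 in healthy joints. Every siNEG joint lay above the median of loaded untreated joints and above that of healthy joints, and every siMMP13 joint lay below the siNEG median, although the ranges overlapped in each case. Means were 104.7 ± 12.7 in siMMP13, 124 ± 11.7 in siNEG, 99.98 ± 10.8 in loaded untreated and 102 ± 14.4 in healthy joints (SD, n = 12 each), and apart from siNEG joints no groups differed past the test under housekeeping scaling. Loaded untreated joints passed as lower than healthy joints under TMM scaling (-0.22, adjusted p = 0.030), against -0.02 (adjusted p = 0.84) under housekeeping scaling.

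SiNEG joints held 1.24-fold more Traf2 RNA than loaded untreated joints (0.31 ± 0.06 log2, SE, adjusted p = 0.023), and the call stood in 24 of 24 fits that each left out 1 library. It was lost under TMM scaling (0.27, adjusted p = 0.19). Against healthy joints siNEG joints stood 0.29 ± 0.07 higher (adjusted p = 0.0012), which shrank to 0.05 (adjusted p = 0.62) under TMM scaling. SiMMP13 joints stood below siNEG joints by -0.25 ± 0.06 (adjusted p = 0.043). This last call was marginal: it stood in 9 of 24 fits that left out 1 library, and neither under TMM scaling (-0.14, adjusted p = 0.30), without the 4 divergent libraries (-0.22, adjusted p = 0.11) nor with the replicate number as a block (-0.24, adjusted p = 0.079). Between siMMP13 and loaded untreated joints Traf2 differed by 0.07 ± 0.07 (adjusted p = 0.65; 95% interval -0.06 to 0.20).

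Ripk1, the kinase that links the receptor complex to NF-kB or to cell death, passed no test of a group difference under housekeeping scaling (adjusted p = 0.49 for any difference among the 4 groups). The lowest, median and highest normalized counts were 52.2, 140.3 and 173 in siMMP13 joints, 101, 145 and 191 in siNEG joints, 113, 153 and 183 in loaded untreated joints, and 89.6, 138 and 200.6 in healthy joints. The low tail in siMMP13 joints consisted of replicates 11 (52.2), 7 (52.3) and 8 (89.4), all divergent libraries. Without divergent libraries the siMMP13 joints ran from 118 to 173, and their mean was 146 ± 16.04 (n = 9), against 146 ± 25.5 in siNEG joints (n = 12). In siMMP13 against healthy joints Ripk1 differed by -0.11 ± 0.19 log2 (adjusted p = 0.52), which passed under TMM scaling (-0.28, adjusted p = 0.018) and turned to 0.05 (adjusted p = 0.67) without the divergent libraries.

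Birc2, which encodes the ubiquitin ligase cIAP1, was lower in loaded joints than in healthy joints. Its lowest, median and highest normalized counts were 102, 219.6 and 252 in siMMP13 joints, 182, 222 and 257 in siNEG joints, 179, 227 and 270.2 in loaded untreated joints, and 213, 262 and 314 in healthy joints. Every siMMP13 and siNEG joint and 10 of 12 loaded untreated joints lay below the healthy median, while the ranges still overlapped. Birc2 averaged 203 ± 52.6 in siMMP13, 224 ± 21.8 in siNEG, 227 ± 29.2 in loaded untreated and 261 ± 24.9 in healthy joints (SD, n = 12 each), and no neighbours in this order passed the test. All 36 loaded joints together stood below healthy joints by -0.26 ± 0.06 log2 (0.833-fold, adjusted p = 0.0069), with 34 of 36 below the healthy median. Birc2 was lower than in healthy joints under all 16 alternatives for that comparison (-0.47 to -0.20), and the call was lost in 1 of them, the scaling without the housekeeping gene Gusb (-0.20, adjusted p = 0.10). In siMMP13 joints it stood at -0.36 ± 0.14 (adjusted p = 0.0031), called under all 17 alternatives, and at -0.19 (adjusted p = 0.022) without the divergent libraries, which held the siMMP13 values of 102, 106 and 161. For siNEG (-0.22 ± 0.06, adjusted p = 0.071) and loaded untreated joints (-0.20 ± 0.07, adjusted p = 0.0999) the test was missed, though it was passed under 8 and 7 of the 17 alternatives, TMM scaling among them (-0.47 and -0.41).

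Nfkb1, the source of p50, did not pass in any comparison under housekeeping scaling. Its lowest, median and highest normalized counts were 272, 544 and 711 in siMMP13 joints, 469, 582 and 701 in siNEG joints, 437, 563 and 659.8 in loaded untreated joints, and 401, 629.7 and 767 in healthy joints. The lowest values were again in divergent libraries, siMMP13 replicates 7 (272), 11 (348) and 8 (423) and healthy replicate 2 (401). Nfkb1 averaged 529.9 ± 129.7 in siMMP13, 596 ± 61.9 in siNEG, 567 ± 69.6 in loaded untreated and 594 ± 103 in healthy joints (SD, n = 12 each). In siNEG against healthy joints the difference was 0.0054 ± 0.09 log2 (adjusted p = 0.96) with housekeeping scaling, but -0.23 (adjusted p = 0.0099) with TMM scaling, so its direction rests on the scaling. In siMMP13 against healthy joints it stood at -0.16 (adjusted p = 0.21), and at -0.05 (adjusted p = 0.60) without the divergent libraries. With all libraries it passed as lower under TMM (-0.33, adjusted p = 0.00045) and total-count scaling (-0.39, adjusted p = 0.00024). Loaded untreated joints stood at -0.07 against healthy joints (adjusted p = 0.60), and at -0.26 (adjusted p = 0.0044) under TMM scaling. For all loaded against healthy joints TMM scaling gave -0.27 (adjusted p = 0.00021).

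Rela, the canonical activating subunit, passed in no comparison under housekeeping scaling and had the smallest spread, relative to its mean, of the 9 genes in each loaded group. Normalized counts of Rela had a lowest, median and highest value of 345, 427 and 523 in siMMP13 joints, 367, 428 and 492 in siNEG joints, 376, 433 and 468 in loaded untreated joints, and 287, 420.2 and 499 in healthy joints. Means were 427 ± 41.3, 429 ± 37.3, 428 ± 25.5 and 409 ± 49.6 in the same order (SD, n = 12 each), a spread of 5.96% to 12.1% of the mean within groups. The 95% interval of siMMP13 minus siNEG joints was -0.11 to 0.10 log2, and that of loaded untreated minus healthy joints was -0.05 to 0.18. These intervals do not cover the choice of scaling. Under TMM scaling siMMP13 stood 0.13 above siNEG joints (adjusted p = 0.36), outside the first interval. For loaded untreated against healthy joints the alternatives ran from -0.13 to 0.15.

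Relb, the non-canonical subunit, was higher in siMMP13 and siNEG joints than in healthy joints. Across joints, the lowest, median and highest normalized counts were 213, 303 and 401 in siMMP13 joints, 170.2, 275 and 336 in siNEG joints, 205, 231 and 327 in loaded untreated joints, and 159.7, 205 and 297 in healthy joints. Every siMMP13 joint, 11 of 12 siNEG joints and 11 of 12 loaded untreated joints lay above the healthy median, with overlapping ranges. Means stood in the order siMMP13 (302 ± 65.4), siNEG (271 ± 44.6), loaded untreated (247 ± 41.8) and healthy (219 ± 41.8; SD, n = 12 each), and no neighbours in it passed the test. Between siMMP13 and healthy joints the difference was 0.47 ± 0.12 log2 (1.38-fold, adjusted p = 0.00053). That result was called under all 17 alternatives (0.24 to 0.52), including 0.43 (adjusted p = 0.0017) without the divergent libraries. SiNEG joints stood 0.31 ± 0.11 above healthy joints (adjusted p = 0.019), which fell short under TMM scaling (0.06, adjusted p = 0.60). All loaded joints together stood 0.32 above healthy joints (adjusted p = 0.0033), a call that was also lost under TMM scaling (0.13, adjusted p = 0.19). For loaded untreated joints the value was 0.18 ± 0.10 (adjusted p = 0.18), and under TMM scaling it turned to -0.02. SiMMP13 joints stood 0.29 ± 0.11 above loaded untreated joints (adjusted p = 0.12), a difference that passed with TMM scaling (0.36, adjusted p = 0.029).

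Tnfaip3, the feedback inhibitor whose promoter carried the kappaB matches shown above, did not pass in any comparison under housekeeping scaling. Normalized counts of Tnfaip3 had a lowest, median and highest value of 115, 182 and 263 in siMMP13 joints, 117, 156 and 218 in siNEG joints, 104.5, 146 and 177 in loaded untreated joints, and 119, 171 and 216 in healthy joints. The highest value, 263, was that of siMMP13 replicate 7, a divergent library. Tnfaip3 averaged 179 ± 39.6 in siMMP13, 159 ± 28.3 in siNEG, 145 ± 23.1 in loaded untreated and 168 ± 24.3 in healthy joints (SD, n = 12 each). In loaded untreated joints it stood at -0.21 ± 0.09 log2 against healthy joints (adjusted p = 0.10), with 10 of 12 joints below the healthy median. That difference passed under TMM scaling (-0.41, adjusted p = 0.0094) and without the divergent libraries (-0.25, adjusted p = 0.031). SiMMP13 joints stood 0.30 ± 0.12 above loaded untreated joints (adjusted p = 0.11), but 0.18 (adjusted p = 0.33) without the divergent libraries.

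**Figure D2:**
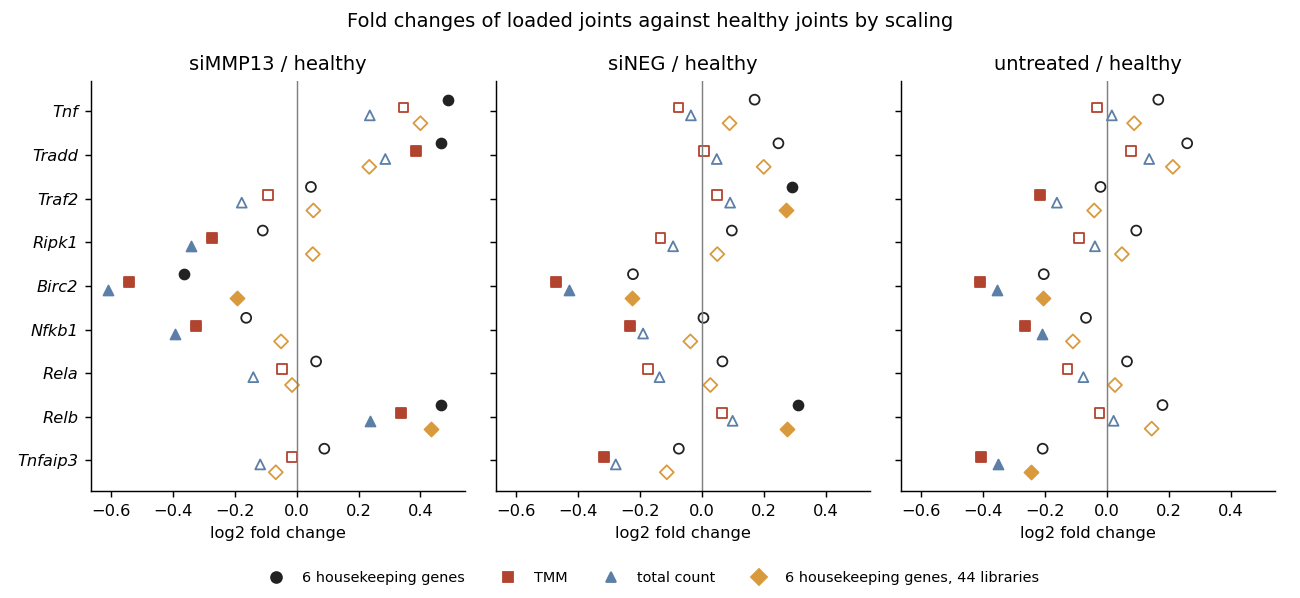
Log2 fold changes (horizontal axes) of the 9 genes in siMMP13, siNEG and loaded untreated joints, each against healthy joints, under 3 scalings and without the 4 divergent libraries; filled symbols passed the test at an adjusted p under 0.05. Birc2 is left of 0 in all 3 panels under each setting drawn, Relb in siMMP13 joints is right of 0 under each, and most other genes shift left together under TMM and total-count scaling.

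Counts of the 9 genes that passed are given beside the share of all tested genes that passed. In loaded untreated against healthy joints 0 of 9 passed edgeR's test (the Wald test of DESeq2 also gave 0, and 1 gene had an unadjusted p under 0.05), while 46.4% of the 196 tested genes passed. The median log2 fold change of the 9 was 0.07, against 0.15 for all tested genes. In siMMP13 against healthy joints 4 of 9 passed, Tnf, Tradd and Relb higher and Birc2 lower, beside 49.5% of tested genes (34.7% higher and 14.8% lower). In siNEG against healthy joints 2 passed, Traf2 and Relb, both higher, beside 50% (37.8% higher). In all loaded against healthy joints 3 passed, Tradd and Relb higher and Birc2 lower, beside 60.2% (40.8% higher and 19.4% lower). These comparisons share the healthy samples.

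The balance of higher and lower calls against healthy joints turned with the scaling. Under TMM scaling siMMP13 joints had 2 of the 9 genes higher (Tradd and Relb) and 3 lower (Ripk1, Birc2 and Nfkb1), beside 54 higher and 52 lower of all tested genes, against 68 and 29 under housekeeping scaling. SiNEG joints had 0 higher and 3 lower (Birc2, Nfkb1 and Tnfaip3), beside 51 and 62 of all tested genes, against 74 and 24. Loaded untreated joints had 0 higher and 4 lower (Traf2, Birc2, Nfkb1 and Tnfaip3), beside 47 and 51, against 62 and 29. All loaded joints together had 0 higher and 3 lower (Birc2, Nfkb1 and Tnfaip3), beside 56 and 66, against 80 and 38. Birc2 was thus lower in each of these 4 comparisons under TMM scaling, while Relb passed as higher in siMMP13 joints alone of them.

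Among loaded joints few genes of any kind passed. In siMMP13 against siNEG joints 1 of 9 passed, Traf2, lower, beside 6.12% of tested genes (4.59% lower). Of all tested genes 3 were higher and 9 lower there, against 8 and 1 under TMM scaling, which called none of the 9 genes. In siNEG against loaded untreated joints the same gene passed, higher, beside 1.53% (1.02% higher). In siMMP13 against loaded untreated joints 0 of 9 passed by edgeR (the Wald test of DESeq2 also gave 0, and 2 genes had an unadjusted p under 0.05), beside 3.57%. Of all tested genes 4 were higher and 3 lower, against 9 and 4 under TMM and 2 and 8 under total-count scaling. Over the 4 groups at once, Tradd, Traf2, Birc2 and Relb differed (adjusted p = 0.014, 0.0010, 0.022 and 0.0033 in that order), 4 of 9 beside 58.7% of tested genes. Under TMM scaling Tradd did not pass that test (adjusted p = 0.10), while Nfkb1 (adjusted p = 0.0017) and Tnfaip3 (adjusted p = 0.010) did.

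Ratios of 2 genes counted in the same library do not depend on scaling, and 3 ratios chosen by role were compared in 3 contrasts, with p-values from two-sided permutation tests adjusted over the 9. None passed. The nearest was Tnfaip3 to Tnf, inhibitor to ligand, with a lowest, median and highest ratio of 1.65, 2.11 and 3.04 in loaded untreated joints and of 1.97, 2.93 and 4.47 in healthy joints. The ranges overlapped, yet 11 of 12 loaded untreated joints lay below the healthy median. The mean log2 ratio was 1.08 ± 0.28 in loaded untreated and 1.53 ± 0.41 in healthy joints (SD, n = 12 each), a difference of -0.44 ± 0.14 (SE; permutation p = 0.0060, adjusted p = 0.054). Subtracting the mean of the negative controls, which bears most on the low Tnf counts, gave -0.55 (adjusted p = 0.040). The highest healthy ratio, 4.47, was that of replicate 2, a divergent library, and the difference was -0.39 without it. With 1 library left out, the adjusted permutation p ran from 0.027 to 0.097. Tnfaip3 to Tnf in siMMP13 joints had a mean log2 ratio of 1.10 ± 0.34, close to the 1.08 ± 0.28 of loaded untreated joints (difference 0.02 ± 0.13, permutation p = 0.91).

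Relb to Rela, non-canonical to canonical subunit, ran from 0.520 over a median of 0.694 to 0.931 in siMMP13 joints, and from 0.438 over 0.561 to 0.855 in loaded untreated joints. Here 11 of 12 siMMP13 joints lay above the loaded untreated median, and the log2 difference was 0.28 ± 0.11 (permutation p = 0.015, adjusted p = 0.069). For the other 7 tests the adjusted p ran from 0.23 to 0.91. Nfkb1 to Rela, p50 source to p65, was spread widest in siMMP13 joints. There it ran from 0.520 over a median of 1.38 to 1.63, against 1.02 over 1.41 to 1.65 in siNEG joints. The lowest siMMP13 log2 ratios were those of the divergent replicates 7 (-0.94), 11 (-0.38) and 8 (0.04). Without these libraries siMMP13 joints ran from 0.23 to 0.70 on the log2 scale, against 0.02 to 0.73 in siNEG joints. The wide spread thus rested on the divergent libraries.

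The ratio of Relb to Birc2 was formed after their values were seen, so it is a description without a test. Its medians were 1.36 in siMMP13, 1.254 in siNEG, 1.03 in loaded untreated and 0.790 in healthy joints. It lay above the healthy median in 12 of 12 siMMP13, 11 of 12 siNEG and 12 of 12 loaded untreated joints. It lay above the highest healthy joint in 7, 5 and 3 of them. Those siMMP13 joints include the divergent replicates 7, 11 and 8, with log2 ratios of 1.83, 1.60 and 0.41, against 0.35 in the highest healthy joint.

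**Figure D3:**
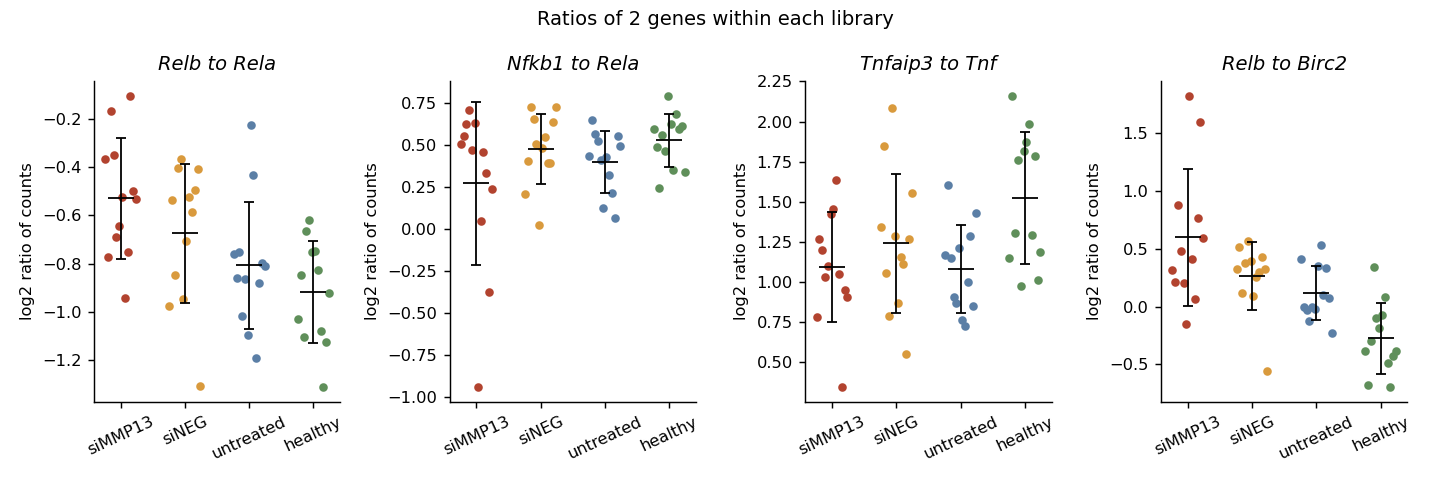
Log2 ratios of counts (vertical axes) of 4 gene pairs in each sample of the siMMP13, siNEG, loaded untreated and healthy groups, with mean and SD. Tnfaip3 to Tnf is highest on average in healthy joints (1.53), and Relb to Birc2, which was chosen after its values were seen, is lowest there.

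Within groups, joints with more Tnf also had more Tnfaip3. After the group means were removed, Pearson's r was 0.58 and Spearman's rho 0.54 over 48 samples (two-sided permutation p = 4.0e-05 for r, shuffled within groups, and 0.00016 adjusted over 4 pairs; 0.00012 and 0.00048 for rho). By group r was 0.69 in siMMP13, 0.49 in siNEG, 0.42 in loaded untreated and 0.71 in healthy joints. The healthy value leans on replicate 2, a divergent library with the lowest Tnf and Tnfaip3 of that group (-1.09 and -0.48 from its means). Without the 2 samples farthest from the Tnf median r was 0.52, without the divergent libraries 0.57 (n = 44), and under TMM scaling 0.57. The other pairs did not pass: r was 0.04 for Tnf and Nfkb1 (rho -0.02, adjusted permutation p = 0.82), 0.09 for Nfkb1 and Relb (rho 0.08, adjusted permutation p = 0.79) and 0.10 for Nfkb1 and Rela (rho 0.09, adjusted permutation p = 0.79). The adjusted permutation p of rho was 0.82 to 0.88 for these 3 pairs. For Nfkb1 and Rela, r was 0.40 (adjusted permutation p = 0.018) without the 2 samples farthest from the Nfkb1 median. For Nfkb1 and Relb the sign turned under TMM scaling (-0.43, adjusted permutation p = 0.0100). The permutation test sets r against 0, whereas pairs of all tested genes had a median r of 0.16. Tnfaip3 also ran with Tradd (r = 0.51) and Rela (0.50), though less without the divergent libraries (0.29 and 0.32).

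**Figure D4:**
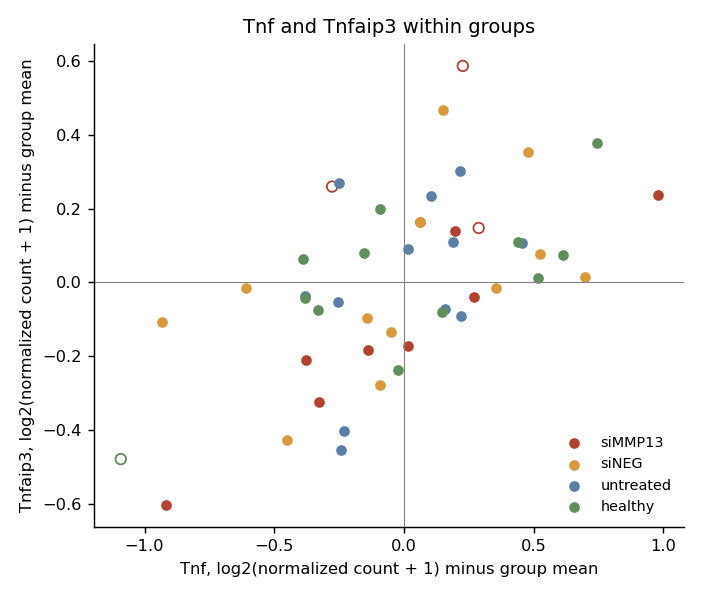
Tnfaip3 (vertical) against Tnf (horizontal), both as log2(normalized count + 1) minus the group mean, 1 point per sample, coloured by group, with the 4 divergent libraries open. The points rise together across the 48 samples (r = 0.58).

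As a description, each gene was matched to the tested gene most like it by r of group-centred values over 48 samples, which share lane scaling and tissue makeup. Tnf was most like Mx2 (0.63), Stat2 (0.63) and Mx1 (0.62), interferon-response genes, and these values were 0.68, 0.62 and 0.67 over the 44 libraries without divergent profiles. Relb was most like Tlr2 (0.60, and 0.54 over 44), a receptor for bacterial lipoproteins. Tnfaip3 was most like Cd86 (0.61 and 0.46), a costimulatory molecule of antigen-presenting cells, and Tradd was most like Tyrobp (0.75 and 0.55), a signalling adaptor of myeloid cells. Traf2 had the weakest best match, Il1rn (0.41 and 0.39).

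The highest likeness values were those of Ripk1, Birc2 and Nfkb1, the genes that were low in the divergent siMMP13 libraries, and they were smaller without those libraries. Ripk1 was most like Gnb1 (0.92 and 0.81), Birc2 most like Cd55 (0.89 and 0.69), and Nfkb1 most like Rhoa (0.86 and 0.67), while Rela was most like Cfl1 (0.69 and 0.54). Among the 36 pairs of the 9 genes the median r was 0.23, against 0.16 over all 19110 pairs of tested genes. The strongest pair, Ripk1 and Nfkb1, had r = 0.81, and 0.55 without the divergent libraries. Tradd and Birc2 ran opposite (-0.60, and -0.40 without them).

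Other genes of the pathway gave the surroundings, and their calls are to be read beside those of all 196 tested genes. Of these, 62 rose and 29 fell in loaded untreated against healthy joints. In siMMP13 against siNEG joints 3 rose and 9 fell, and in siMMP13 against loaded untreated joints 4 rose and 3 fell. Of the TNF and lymphotoxin family 3 of 6 genes with a probe were tested, and in loaded untreated against healthy joints 0 rose and 1 fell. That gene was Ltb, a lymphotoxin chain made by lymphocytes (-0.82 ± 0.12 log2, adjusted p = 1.5e-05). Ltb averaged 138 ± 27.2 in loaded untreated and 243 ± 51.2 in healthy joints. Under TMM and total-count scaling and without the divergent libraries, 2 of the 3 family genes fell. Of 11 other signal transducers 3 rose, Nod1 (0.39 ± 0.09), Daxx (0.53 ± 0.14) and Mapk8 (0.25 ± 0.08), and 1 fell, Map3k1 (-0.28 ± 0.11). Under TMM scaling 1 transducer rose and 2 fell, and without the divergent libraries 5 rose and 2 fell. Of those named, Daxx (0.33, adjusted p = 0.027) and Map3k1 (-0.47, adjusted p = 0.0095) still passed under TMM scaling. Nod1 (0.19, adjusted p = 0.17) and Mapk8 (0.03, adjusted p = 0.86) did not. In siMMP13 against siNEG joints 0 transducers rose and 1 fell, Mapk8, the stress kinase JNK1 (194 ± 18.7 in siMMP13 and 234 ± 33.4 in siNEG joints, -0.27 ± 0.07, adjusted p = 0.043). Mapk8 did not pass there under TMM scaling (-0.15, adjusted p = 0.42) or without the divergent libraries (-0.27, adjusted p = 0.060). In siMMP13 against loaded untreated joints 0 of the 11 transducers and 0 of the 3 family genes passed, though 1 transducer fell under total-count scaling.

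Of 24 tested genes known as NF-kB targets, 12 rose and 3 fell in loaded untreated against healthy joints, with a median of 0.48 log2 against 0.15 for all tested genes. Of all 196 tested genes 62 rose and 29 fell there. Under TMM scaling 9 of the targets rose and 5 fell, with a median of 0.28, beside 47 and 51 of all tested genes. These counts are a description, since the list was chosen with earlier results known. The count filter also admits genes seen mainly in loaded joints, such as Ptgs2. The monocyte chemokines Ccl2 (3.35 ± 0.57) and Ccl7 (2.89 ± 0.47) and the prostaglandin synthase gene Ptgs2 rose, Ptgs2 at least 2.45-fold (adjusted p = 2.1e-07), since it lay above the negative controls in 12 of 12 loaded untreated but 2 of 12 healthy joints. Bcl2l1, a survival gene, fell (480.0 ± 68.8 in loaded untreated and 759 ± 129.8 in healthy joints). In siMMP13 against loaded untreated joints 1 target rose, Cd86 (0.60 ± 0.16, adjusted p = 0.010), and 1 fell, Myc (-0.35 ± 0.09, adjusted p = 0.0097). Cd86 stood at 0.37 (adjusted p = 0.088) without the divergent libraries. Under TMM scaling 3 targets rose and 1 fell, and under total-count scaling 0 rose and 1 fell. In siMMP13 against siNEG joints 0 rose and 1 fell, Myc (-0.28 ± 0.07, adjusted p = 0.043), a growth regulator, but not under TMM scaling (-0.17, adjusted p = 0.23) or without the divergent libraries (-0.26, adjusted p = 0.11).

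Markers of the cells in the tissue differed between groups as well. Of 6 macrophage and monocyte markers tested, 2 rose and 3 fell in loaded untreated against healthy joints, 2 rose and 0 fell in siMMP13 against siNEG joints, and 3 rose and 2 fell in siMMP13 against healthy joints. Of 4 lymphocyte and antigen presentation markers all 4 fell in loaded untreated against healthy joints, and of 3 granulocyte markers 2 fell. Of all 196 tested genes 62 rose and 29 fell in loaded untreated against healthy joints. In siMMP13 joints 3 rose and 9 fell against siNEG joints, and 68 rose and 29 fell against healthy joints. Ltb and Cd86 are on these lists as well as on the pathway lists. Summed normalized counts of the macrophage and monocyte markers (6 of 10 listed) had ranges and medians of 8128 to 25468 and 13497 in siMMP13, 6703 to 13140.1 and 8817 in siNEG, 8311 to 12422 and 9338 in loaded untreated, and 5801 to 13366 and 10578 in healthy joints. Sums of 4 lymphocyte and antigen presentation markers (of 8) ran from 1478 to 1978, 1189 to 1843, 1082 to 1833, and 949 to 2784 in the same order. Those of 3 granulocyte markers (of 6) ran from 423 to 1069, 385 to 1087, 420.5 to 1006, and 570.5 to 1413, and those of 3 muscle genes from 129.8 to 2625, 199 to 1213, 156 to 925, and 152 to 1119. The macrophage and monocyte sums were mostly Tyrobp, with means of 10625 in siMMP13 and 6317 in siNEG joints. The lymphocyte and antigen presentation sums were mostly H2-Eb1, with means of 1371 and 1092 in these groups. Marker calls are given under housekeeping scaling only. None of the summed markers was at background in a group, and 0 of 5 cartilage and synovium markers had a probe, so the labelled tissue could not be checked by them. The part of these markers in the values of the 9 genes was not tested.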

How the data were processed

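Counts per probe are those deposited by the authors, whole numbers with no normalization recorded, and the counting software is not given in the sources used here. RNA was purified on columns from homogenised joint tissue, per the labels' protocols. Nothing in the labels says that the 12 samples of a group are separate animals, so the p-values may rest in part on technical spread. No 2 libraries were identical.

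Libraries were scaled on 6 housekeeping genes (Tubb5, Pgk1, Hprt, Gusb, Gapdh and Cltc), by their geometric mean. Of 248 endogenous genes, the 196 that exceeded 20 counts in 12 or more samples were tested with edgeR 4.0.16 in R 4.3.3 (quasi-likelihood test, all 48 samples in 1 fit), with Benjamini-Hochberg adjustment over those genes. Standard errors of fold changes come from log2(normalized count + 1). The 95% intervals set these, with a normal quantile, around edgeR's fold change, so they can differ from its test. Ratios and correlations used 100000 permutations (20000 for medians and left-out libraries). A library was divergent where its housekeeping profile deviated from the group median by over 0.662 (root mean square, log2; the median plus 3 scaled MAD). The fit was tested on simulated data.

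The 9 genes and all lists were chosen with earlier results of these data known. All 9 are named in every comparison, with up to 4 called genes of smallest p per pathway list in 3 comparisons, and the most like gene of each (3 for Tnf). For Ptgs2, healthy values were raised to the limit of the negative controls.

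Same-numbered samples of different groups did not deviate together (mean r from -0.09 to 0.09 by pair of groups), so replicate numbers were not taken as pairs. Alternatives were other scalings, filters, background subtraction, DESeq2 1.42.0, limma 3.58.1, fits of only the groups compared, a replicate block, and leaving out libraries.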

Additional observations from a re-analysis of the deposited data

How the results depend on the processing

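The count of the 9 genes called depended on the scaling more than on the test. In loaded untreated against healthy joints 0 became 4 under TMM scaling and under DESeq2 size factors (Birc2, Nfkb1, Tnfaip3 and Traf2, all lower), 3 under total-count scaling (Birc2, Nfkb1 and Tnfaip3, all lower), 2 without Hprt in the scaling or without the divergent libraries (Birc2 and Tnfaip3, both lower), and 1 without Gapdh or Gusb (Tradd, higher), without Tubb5 or in a fit of only the groups compared (Birc2, lower). In siMMP13 against siNEG joints 1 became 0 under TMM, DESeq2 size factor and total-count scaling, without Gusb, Hprt or Tubb5, without a count filter, in a fit of only the groups compared, with the replicate block and without the divergent libraries. It ran from 0 to 1 when 1 library was left out, and was 0 without siMMP13 replicate 1, 2, 4, 6, 7, 8, 11 or 12 or siNEG replicate 1, 5, 6, 7, 10, 11 or 12. The replicate block moved no other count of these genes. In siMMP13 against loaded untreated joints 0 became 1 (Relb) under TMM and DESeq2 size factors, and ran from 0 to 1 with 1 library left out (1, Tnfaip3, without siMMP13 replicate 6). In siNEG against loaded untreated joints 1 became 0 under TMM, DESeq2 size factor and total-count scaling and without Cltc, Gusb or Tubb5. In siMMP13 against healthy joints 3 higher and 1 lower became 1 and 1, a count of 2 (Relb and Birc2), without the divergent libraries. They became 2 and 3 under TMM and DESeq2 size factors (Ripk1, Birc2 and Nfkb1 lower), and 1 and 3 under total-count scaling (Relb higher, the same 3 lower). In this comparison Tnf passed under 11 of 17 alternatives, and missed in a fit of only the groups compared (adjusted p = 0.054). With 1 library left out the count ran from 3 to 4. In siNEG against healthy joints 2 higher and 0 lower became 0 and 3 under TMM scaling (Birc2, Nfkb1 and Tnfaip3), and 0 and 2 under DESeq2 size factors (Birc2 and Nfkb1). The count became 1 (Birc2, lower) under total-count scaling and 4 (Rela, Relb, Tradd and Traf2) without Gapdh. In all loaded against healthy joints 2 higher (Tradd and Relb) and 1 lower (Birc2) became 0 and 3 under TMM and total-count scaling (Birc2, Nfkb1 and Tnfaip3), and 0 and 2 under DESeq2 size factors (Birc2 and Nfkb1). Nfkb1 in siNEG against healthy joints reversed to -0.23 under TMM and -0.21 under DESeq2 size factors.

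The Tnfaip3 to Tnf ratio in loaded untreated against healthy joints was -0.55 after background subtraction and -0.49 to -0.39 with 1 library left out, passing without healthy replicate 1, 5, 11 or 12 or loaded untreated replicate 2 or 12. Relb to Rela in siMMP13 against loaded untreated joints ran from 0.24 to 0.33, passing without siMMP13 replicate 8 or loaded untreated replicate 7. Uncalled ratios that changed sign were Nfkb1 to Rela in siMMP13 against siNEG joints (0.027 without the divergent libraries), the same ratio in siMMP13 against loaded untreated joints (0.10 without them, 0.034 by medians), and Tnfaip3 to Tnf in siMMP13 against loaded untreated joints (-0.069 without them, -0.034 to 0.083 with 1 library left out). The correlation of Tnf and Nfkb1 changed sign under TMM (-0.25) and total-count scaling (-0.23), without the divergent libraries (-0.039) and without the 2 farthest samples (-0.11). That of Nfkb1 and Relb changed sign under TMM (-0.43) and total-count scaling (-0.35), and that of Nfkb1 and Rela under TMM (-0.15), while it passed at 0.40 without the 2 farthest samples. The cause of these changes was not tested, except that fits with fewer libraries also hold fewer samples. Of 1062 single-gene fold changes recomputed for the 9 genes, 871 kept their direction and their side of the threshold, 39 lost a call, 44 gained one and 106 uncalled values changed sign. Depth limits Tnf most, whose lowest count was 18, near the negative controls. The checks of the pathway lists, under TMM and total-count scaling and without the divergent libraries, were added after the data were seen.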
